A study of Mus musculus with 16 samples.

Results

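The mitochondrial ribosomal protein genes were examined in mouse muscle stem cells (MuSCs) labelled wild type or TRF2 knockout, from uninjured muscle and 3 days after injury (3 DPI). The members are all genes of the count table whose symbol begins with Mrpl or Mrps followed by a number, with at most one further letter and digit. This rule gave 77 of the 24411 genes in the table. They comprise 50 genes for proteins of the large subunit and 26 for the small subunit, together with Mrps36, whose protein is a subunit of the 2-oxoglutarate dehydrogenase complex in spite of its name. Mrps30 and Mrps18a were counted with the large subunit, where their proteins sit. The 16 libraries of sorted MuSCs form 4 groups of 4: control and TRF2 MuSC-cKO from uninjured muscle, and control and TRF2 MuSC-cKO at 3 DPI. In TRF2 MuSC-cKO mice the floxed Terf2 gene is removed by a tamoxifen-induced Cre recombinase driven from Pax7, so that deletion is aimed at MuSCs and at no other cell of the muscle. The controls are labelled wild type, and the mice are on a C57BL/6 background. Injury was made with 10 µl of notexin, a snake toxin that destroys myofibers. Ages are not in the sample records, and these do not say whether each library is 1 animal, so the p-values below measure the spread between these libraries. The library names carry 5 codes that recur within and between groups and whose meaning is not given. The 2 uninjured groups have no code in common, so that genotype and code cannot be told apart there. In the other comparisons of 2 groups 1 code is common to both: it marks 2 control and 2 TRF2 MuSC-cKO libraries at 3 DPI, 1 uninjured and 2 injured control libraries, and 1 uninjured and 2 injured TRF2 MuSC-cKO libraries.

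Mitochondria carry their own ribosome, which makes the few respiratory chain subunits encoded in mitochondrial DNA. All of its proteins are encoded in the nucleus, made in the cytosol and imported. Many descend from the bacterial ancestor of the mitochondrion, and the others were added later and are found in mitochondrial ribosomes only. Among the members, 30 large-subunit and 16 small-subunit genes encode proteins with a bacterial counterpart, and 20 and 10 encode mitochondria-specific proteins. Mrps18a was counted as mitochondria-specific, although its protein is a version of a bacterial small-subunit protein. Quiescent MuSCs hold few mitochondria, and mitochondrial content is known to increase when they activate and enter the cell cycle after injury.

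The promoters of these genes are known for sites of the ETS factor GABP, of NRF1 and of YY1, and their letters were looked for in the RefSeq windows of GRCm38.p6 from 250 bases before to 50 bases after the transcription start. A window was at hand for 68 members and for 16522 protein-coding genes in all. On either strand, the ETS letters CCGGAAG were in 23 member windows (33.8%) against 12.3% of all windows, the NRF1 letters (GCGC, any base, then TGCGC) in 13 (19.1%) against 6.91%, and the YY1 letters AAGATGGC in 12 (17.6%) against 3.27%. At least 1 of the 3 motifs was in 40 member windows (58.8%) against 20.2% of all. The E-box CACGTG was in 5 (7.35%) against 8.09%, the SP letters GGGCGG in 34 of the 68 against 48.2%, the telomere repeat TTAGGG in 6 (8.82%) against 10.5%, and the letters of a G-quadruplex (4 runs of at least 3 G, or of C, with 1 to 7 bases between runs) in 10 (14.7%) against 21.9%. The ETS and YY1 letters can overlap in AAG, and the SP letters can fall within a G-quadruplex match. A match describes the sequence without showing that a factor binds. Shown here are the stretches outside all annotated exons for the 4 members that had both an unadjusted p under 0.05 in one of the comparisons below and ETS, NRF1 or YY1 letters in that stretch, with those letters in capitals, read 5′ to 3′ on the strand of the gene. The Mrpl12 stretch lies at chr11:120484387-120484612 (plus strand) and holds an NRF1 match, the Mrpl43 stretch at chr19:45006443-45006557 (minus strand) holds 2 ETS matches, the Mrpl9 stretch at chr3:94443086-94443317 (plus strand) holds an NRF1 match, and the Mrpl52 stretch at chr14:54426659-54426908 (plus strand) holds an ETS match on the other strand, read as CTTCCGG.
Mrpl12: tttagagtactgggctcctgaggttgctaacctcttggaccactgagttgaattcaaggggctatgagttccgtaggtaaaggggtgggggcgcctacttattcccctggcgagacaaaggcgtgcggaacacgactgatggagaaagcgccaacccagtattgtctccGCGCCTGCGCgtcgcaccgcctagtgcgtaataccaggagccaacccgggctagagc
Mrpl43: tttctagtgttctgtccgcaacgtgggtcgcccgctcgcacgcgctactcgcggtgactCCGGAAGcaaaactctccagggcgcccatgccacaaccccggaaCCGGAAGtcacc
Mrpl9: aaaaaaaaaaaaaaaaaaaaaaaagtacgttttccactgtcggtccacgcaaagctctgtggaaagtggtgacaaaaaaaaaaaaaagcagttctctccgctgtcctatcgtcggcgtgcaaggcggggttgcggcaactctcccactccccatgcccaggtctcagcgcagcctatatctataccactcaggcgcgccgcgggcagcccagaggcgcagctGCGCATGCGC
Mrpl52: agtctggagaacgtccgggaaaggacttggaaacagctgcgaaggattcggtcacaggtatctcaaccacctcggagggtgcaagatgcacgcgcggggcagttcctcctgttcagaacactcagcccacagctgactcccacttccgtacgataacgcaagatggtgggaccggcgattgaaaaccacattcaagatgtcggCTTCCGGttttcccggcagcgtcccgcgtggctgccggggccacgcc

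The libraries were shallow, at 620506 to 1351130 estimated counts, and the members together held 727 to 2304 counts per library, 0.0972% to 0.177% of all counts. The mean count of a member over the libraries ran from 4.25 to 53.5 with a median of 14.8, and a count of 0 allows a level of up to 2.47 to 4.63 CPM (counts per 1000000 counts) depending on the library, which is 3 counts and covers counting error only. Some values given further on lie at or below that level, among others in Mrpl3, Mrps33, Mrps21, Mrpl32, Mrpl40 and Mrpl33. The fold changes of such members rest in part on few reads. One library stood apart. TRF2 MuSC-cKO 3 DPI replicate 3 had a count for 15387 genes, where the others had 19996 or more, and for 40 members, where the others had 67 to 77. In that library the 10 highest members held 61.9% of the summed member CPM, against 25.4% to 35.4% in the others. Terf2 was at 66.3 to 94.5 CPM in uninjured controls and 27.2 to 58.7 in the uninjured knockout group, without overlap. At 3 DPI the controls were at 35.5 to 48.6 CPM and the libraries labelled TRF2 MuSC-cKO at 21.9 to 89.7, which does not follow the label, although reads outside the deleted exons count toward the gene. TRF2 MuSC-cKO at 3 DPI therefore stands below for the libraries that carry this label. All 10 MuSC markers, Pax7 among them, had counts in each group, and their sum was 3557 to 5492 CPM in uninjured controls, 1920 to 2916 in uninjured TRF2 MuSC-cKO, 1001 to 1273 in 3 DPI controls and 521 to 708 in TRF2 MuSC-cKO at 3 DPI. The sum of 10 macrophage and leukocyte markers was 68.2 to 114 CPM in uninjured controls and 121 to 187 in uninjured TRF2 MuSC-cKO, without overlap, and 5149 to 6627 CPM in 3 DPI controls and 2148 to 5979 in TRF2 MuSC-cKO at 3 DPI. The sum of 6 myofiber markers was 123 to 164 and 121 to 208 CPM in the uninjured groups, and 194 ± 39.4 CPM in 3 DPI controls against 294 ± 73.7 in TRF2 MuSC-cKO (SD, n = 4 each), without overlap. Endothelial, fibro-adipogenic and Schwann cell markers overlapped between genotypes. All of these markers had counts in each group. As a gauge of background, 1489 chemosensory receptor genes that muscle has no known use for averaged 1.74 to 4.4 CPM per gene, and the members averaged 11.5 to 24.6. The receptor mean was higher in TRF2 MuSC-cKO, with overlapping libraries. It was 2.25 CPM in controls against 3.29 in uninjured muscle, and 2.88 against 3.58 at 3 DPI. The spans of 41 members overlap another annotated gene, 35 of them one on the other strand, and no source used here says whether reads were counted by strand, so their values can hold reads of that gene. Among these members are Mrpl3, Mrpl12, Mrpl9, Mrpl10, Mrpl40, Mrpl33, Mrps28 and Mrps18c.

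**Figure D1:**
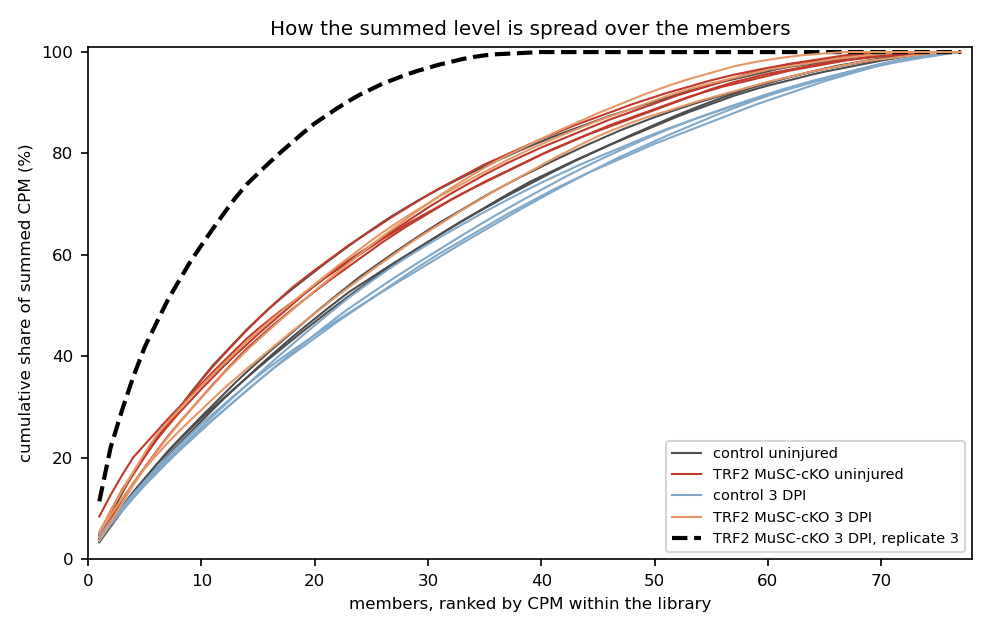
Cumulative share of the summed member CPM (vertical axis, percent) over the 77 members ranked by CPM within each library (horizontal axis), with 1 line per library. The dashed line of TRF2 MuSC-cKO 3 DPI replicate 3 reaches 61.9% at the tenth member, where the other 15 lines are at 25.4% to 35.4%.

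Apart from the ranking by CPM within each library above, levels of different members were compared only per transcript length. These levels were taken in the abundance-scaled table as a share of its total, in parts of 1000000. In uninjured controls Mrpl52, a mitochondria-specific protein of the large subunit, had the highest median level per length at 172 parts, with a range of 120 to 245 over the 4 libraries. It was followed by Mrpl23 at 117 (62.3 to 130), Mrpl12 at 95.4 (65.9 to 129), Mrpl24 at 90.4 (74.0 to 107) and Mrps5 at 66.4 (51.3 to 83.8). The ranges of neighbours in this order overlap, and the range of Mrpl52 lies above those of Mrpl24 and Mrps5. At the low end stood Mrps18c at 7.37 (0 to 73.7), Mrpl57 at 7.85 (5.19 to 11.7) and Mrpl35 at 9.14 (3.88 to 13.1). The order of the 77 members was alike to a moderate degree between groups, with a Spearman correlation of 0.71 between uninjured and 3 DPI controls, 0.66 between the uninjured genotypes, 0.62 between the genotypes at 3 DPI and 0.48 between the TRF2 MuSC-cKO groups. These are correlations across genes of group medians, each from 4 shallow libraries that share transcript lengths. When the estimated counts were instead divided by transcript length and rescaled to parts of 1000000, Mrpl52 stood at 98.5, Mrpl23 at 61.7, Mrpl24 at 45.6, Mrpl12 at 44.9 and Mrps5 at 26.4.

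**Figure D2:**
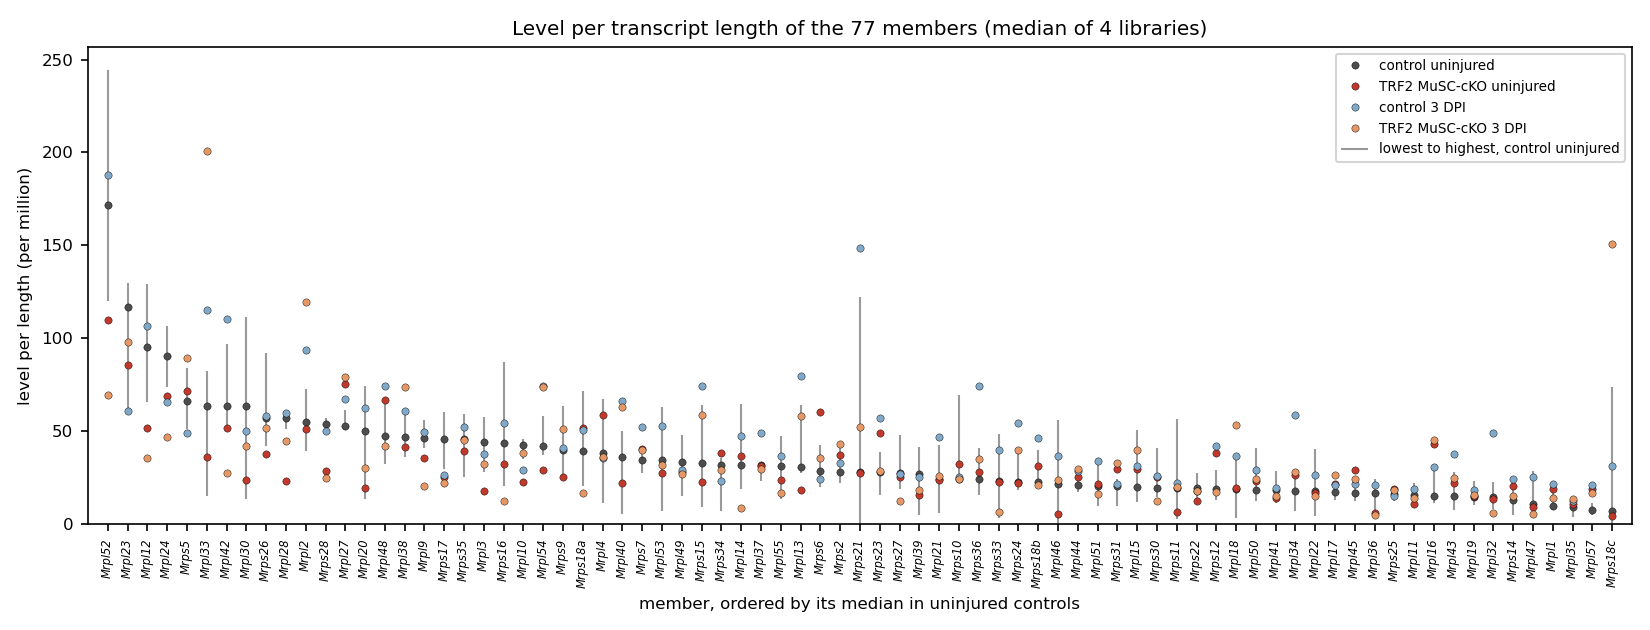
Level per transcript length (vertical axis, parts of 1000000 of the abundance-scaled table) of each member, ordered along the horizontal axis by its median in uninjured controls. Points are medians of 4 libraries per group and grey lines span the lowest to highest uninjured control, from 172 for Mrpl52 to 7.37 for Mrps18c.

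Summed over the 77 members, mitochondrial ribosomal protein transcripts were lower at 3 DPI in the libraries labelled TRF2 MuSC-cKO than in controls. The TMM-scaled sums were 1425, 1647, 1691 and 1896 CPM in 3 DPI controls and 1330, 1294, 1154 and 1286 CPM in TRF2 MuSC-cKO at 3 DPI. The groups do not overlap, with means of 1665 ± 193 and 1266 ± 76.9 CPM (SD, n = 4 each) and a log2 ratio of -0.40. Among the libraries of the common code, the 2 controls (1425 and 1647 CPM) lay above the 2 TRF2 MuSC-cKO libraries (1330 and 1294 CPM), with a log2 ratio of -0.23. MuSC markers were lower and myofiber markers higher in TRF2 MuSC-cKO over the same libraries, without overlap, and their part in the sums was not tested. The sums of the 2 groups did not overlap under library size alone either (1488 to 1767 against 1319 to 1381 CPM) or per length (3420 to 4182 against 2866 to 3246 parts). In uninjured muscle the sums were 1295, 1443, 1134 and 1488 CPM in controls and 884, 1140, 1041 and 1194 CPM in TRF2 MuSC-cKO. These groups overlap, with means of 1340 ± 160 and 1065 ± 136 CPM and a log2 ratio of -0.33, which shrank to -0.05 under library size alone and to -0.12 per length. Between uninjured muscle and 3 DPI the sum was higher after injury by a log2 ratio of 0.31 in controls and 0.25 in TRF2 MuSC-cKO, and within the common code by 0.27 and 0.03. The TMM-scaled ranges overlap in both genotypes, whereas under library size alone and per length they do not, at 1072 to 1244 against 1488 to 1767 CPM in controls. Sums are described without a p-value, because the members were chosen with results known. In bulk samples fewer cells of a type and less RNA per cell cannot be told apart.

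**Figure D3:**
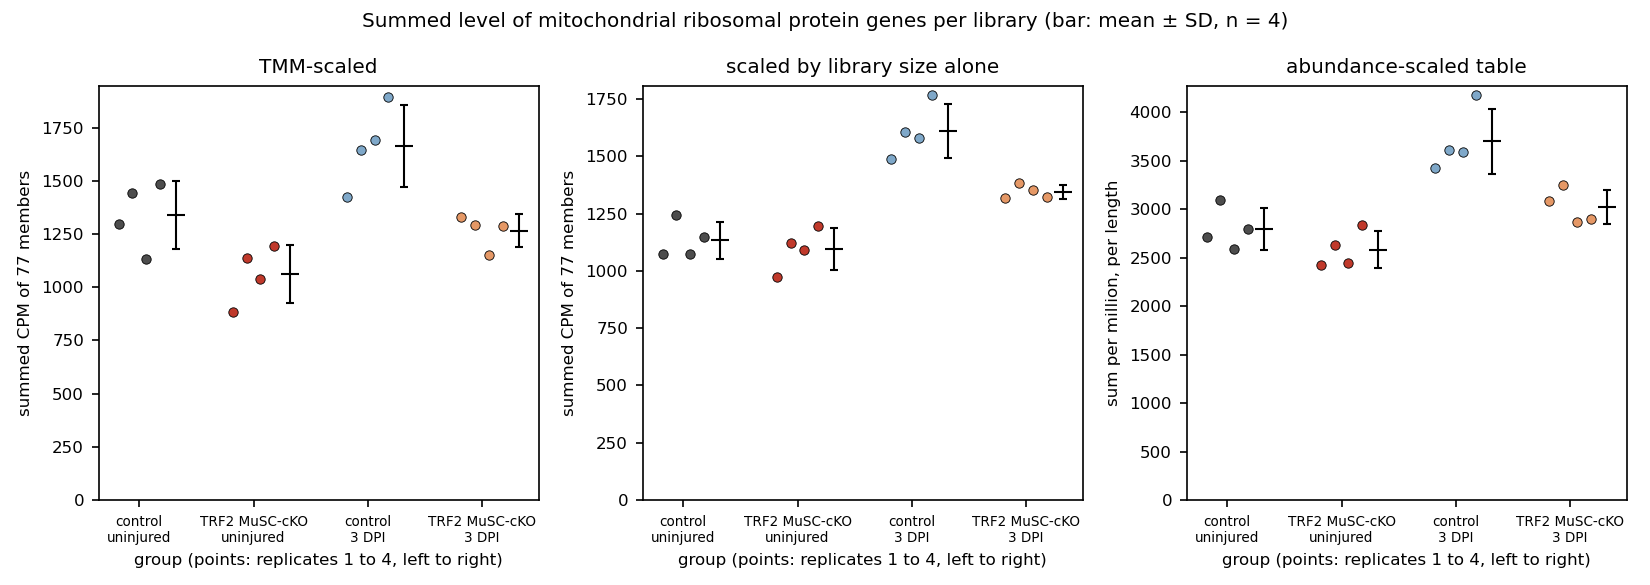
Summed level of the 77 members in each library (vertical axis) for the 4 groups, as TMM-scaled CPM, as CPM scaled by library size alone, and per length in the abundance-scaled table. Points are libraries and bars show mean ± SD, with 3 DPI controls (TMM mean 1665 CPM) above TRF2 MuSC-cKO at 3 DPI (1266 CPM) without overlap on each scale.

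The 30 large-subunit genes with a bacterial counterpart summed to 520 to 624 CPM in uninjured controls and to 360 to 492 CPM in uninjured TRF2 MuSC-cKO, without overlap, while the other 3 classes overlapped between these groups. Under library size alone this class overlapped as well, with a log2 ratio of -0.17 in place of -0.45. At 3 DPI 3 of the 4 classes were lower in TRF2 MuSC-cKO without overlap. These were the large-subunit genes with a bacterial counterpart, at 598 to 778 against 490 to 570 CPM, and the mitochondria-specific genes of both subunits, at 383 to 539 against 190 to 380 CPM in the large and 182 to 246 against 128 to 167 CPM in the small subunit. Under library size alone the mitochondria-specific classes stayed apart and the large-subunit class with a bacterial counterpart overlapped. The 16 small-subunit genes with a bacterial counterpart overlapped at 3 DPI, at 242 to 322 CPM in controls and 249 to 285 CPM in TRF2 MuSC-cKO. Whether the classes differ from each other was not tested.

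The cytosolic ribosome and the respiratory chain are given beside the members for scale. Genes of cytosolic ribosomal proteins summed to 28293 to 39769 CPM in uninjured controls, 11149 to 19752 in uninjured TRF2 MuSC-cKO, 16125 to 25671 in 3 DPI controls and 7313 to 14657 in TRF2 MuSC-cKO at 3 DPI. The ratio of the member sum to that sum was 0.0366 to 0.0419 in uninjured controls, 0.0599 to 0.0793 in uninjured TRF2 MuSC-cKO, 0.0739 to 0.0884 in 3 DPI controls and 0.0907 to 0.158 in TRF2 MuSC-cKO at 3 DPI, so that the groups of each comparison are apart. Nuclear-encoded respiratory chain genes summed to 2732 to 3399 CPM in uninjured controls and 1529 to 2115 in uninjured TRF2 MuSC-cKO, and the ratio of the member sum to theirs was 0.381 to 0.471 and 0.534 to 0.578. At 3 DPI that ratio overlapped between genotypes, at 0.381 to 0.459 and 0.403 to 0.674.

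The first comparison asked which members differ between TRF2 MuSC-cKO and control MuSCs in uninjured muscle. No member was called by edgeR's quasi-likelihood test at an adjusted p under 0.02 and a fold change over 1.5, where 3.22% of all genes tested were called (82 higher and 370 lower). The count was 0 with limma and DESeq2 as well, where they called 2.13% and 4.43% of all genes. Of the 77 members, 46 passed the filter on low counts. Their log2 fold changes ran from -1.70 to 1.01 with a median of -0.14, against 0.06 over all genes tested, and 30 of the 46 lay below 0 against 46.0% of all genes. Without the filter the median of all 77 was -0.33, against 0.13 over all genes, and 58 lay below 0 against 43.5%. For the 9 members with at least 10 counts in each library it was 0.075 against 0.022 over all genes, and 3 lay below 0. Under library size alone the median was 0.04 against 0.24 over all genes, and without replicate 1 of TRF2 MuSC-cKO it was -0.01 against 0.05. In the same fit 61 of 77 cytosolic ribosomal protein genes tested were called lower with a median of -0.95, and 4 of 66 respiratory chain genes with a median of -0.52. The median standard error was 0.49 for the members and 0.21 for the cytosolic ribosomal protein genes, and the difference between these lists was not tested. At an unadjusted p under 0.05, 4 members were lower and 0 higher, where 10.5% and 8.98% of all genes were. In 6 members, all lower, the groups do not overlap, where 9.18% of all genes were lower without overlap. MuSC markers were lower and macrophage and leukocyte markers higher in TRF2 MuSC-cKO over the same libraries, and their part in these values was not tested.

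**Figure D4:**
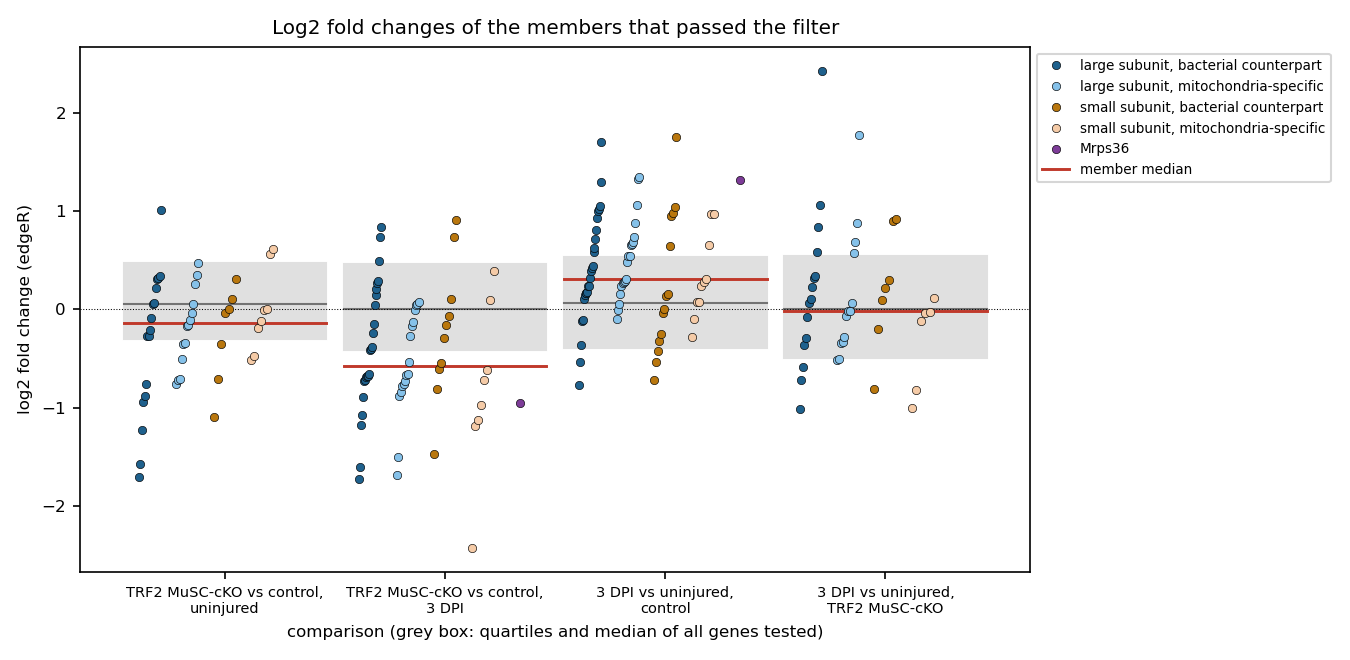
Log2 fold changes (vertical axis, edgeR) of the members that passed the filter in each of the 4 comparisons of 2 groups (horizontal axis), by subunit and origin of the protein. Red lines mark the member median (-0.14, -0.57, 0.31 and -0.01 from left to right) and grey boxes the quartiles and median of all genes tested.

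The member of smallest p was Mrpl3 (GRCm38 chr9:105053239-105079888, plus strand), a core protein of the large subunit near its catalytic centre. It was at 18.8, 26.1, 34.9 and 34.1 CPM in uninjured controls and 9.47, 2.08, 8.59 and 12.3 CPM in uninjured TRF2 MuSC-cKO. Each control lay above each TRF2 MuSC-cKO library, and the log2 fold change was -1.70 ± 0.51 (SE) with an edgeR adjusted p of 0.0393, which misses the threshold. Mrpl12 (chr11:120484613-120489065, plus strand), the mitochondrial form of the bacterial stalk protein that binds translation factors, was at 29.5, 25.2, 46.5 and 49.7 CPM in controls and 15.4, 16.6, 8.59 and 17.7 CPM in TRF2 MuSC-cKO. These groups are apart as well, with a log2 fold change of -1.23 ± 0.40 and an edgeR adjusted p of 0.0633. Mrpl10 (chr11:97041560-97049213, plus strand), which anchors that stalk on the ribosome, was at 25.2 to 35.1 CPM against 8.59 to 21.3 CPM (log2 -0.94 ± 0.42, edgeR adjusted p 0.203). Its groups are apart under TMM and overlap under library size alone. Mrpl28 (chr17:26123500-26126613, plus strand), a large-subunit protein with a bacterial counterpart, was at 20.9 to 26.8 CPM in controls and at 0, 5.19, 11.5 and 15 CPM in TRF2 MuSC-cKO (log2 -1.57 ± 0.57, edgeR adjusted p 0.0996). Mrpl9, whose promoter stretch is shown above, was at 27.9 to 41.9 against 8.28 to 23.2 CPM and Mrps28 at 13.5 to 16.6 against 2.37 to 10.0 CPM, with edgeR adjusted p of 0.289 and 0.317. The remaining named members overlapped between the groups. Mrpl16 had the highest log2 fold change, 1.01 ± 0.57, at 5.81 to 13.5 CPM in controls and 9.47 to 19.7 CPM in TRF2 MuSC-cKO, and Mrpl11, Mrpl52 and Mrps17 had log2 fold changes of -0.88, -0.76 and -0.71 with edgeR adjusted p of 0.361 to 0.435.

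The second comparison asked the same at 3 DPI. No member was called, and no gene of the table was (0.0% of 14559 genes tested). DESeq2 called 0 members, where it called 0.151% of all genes, and limma 1, where it called 0.192%. Without replicate 3 of TRF2 MuSC-cKO, 16 genes were called and again none was a member. Of the 77 members 60 passed the filter, with log2 fold changes from -2.42 to 0.90 and a median of -0.57 against 0.00 over all genes tested. Estimates lay below 0 for 44 of the 60, against 49.9% of all genes, and without the filter for 62 of the 77, against 52.9%. Without replicate 3 of TRF2 MuSC-cKO the median was -0.30 against 0.02 over all genes, with 56 of 66 members below 0. With the library code as a term, where the genotype estimate rests on 2 libraries of each genotype, the median was -0.22 against 0.02, with 36 of 60 below 0. Among the 9 members with at least 10 counts in each library it was 0.12 against 0.05, with 1 below 0. These had to reach 10 counts in replicate 3 of TRF2 MuSC-cKO, where 37 members had no count. This value therefore cannot decide the direction of the other members. Cytosolic ribosomal protein genes had a median of -0.89 and respiratory chain genes of -0.75 in the same fit. At an unadjusted p under 0.05, 4 members were lower and 0 higher, where 3.58% and 5.78% of all genes were. With a library left out the members lower ranged from 0 (control replicate 3) to 6 (TRF2 MuSC-cKO replicate 3). With the library code as a term 0 were lower, and with limma 9. The groups were apart in 3 members, all lower, where 4.87% of all genes were.

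Those 3 were Mrps33, Mrpl12 and Mrpl9. Mrps33 (chr6:39801804-39810988, minus strand), a mitochondria-specific protein of the small subunit, was at 12.4, 15.6, 20.7 and 18.1 CPM in 3 DPI controls and 7.01, 2.31, 0 and 2.33 CPM in TRF2 MuSC-cKO. Its log2 fold change was -2.42 ± 0.86, the largest of the members in this comparison, with an edgeR adjusted p of 0.463, and it was called by limma alone (adjusted p 0.0173). Mrpl12 was at 32.4, 40.8, 43.3 and 53.5 CPM against 22.2, 3.46, 0 and 24.5 CPM (log2 -1.72 ± 0.78, edgeR adjusted p 0.526). It was thus lower without overlap in both injury states, as was Mrpl9 (chr3:94443318-94451130, plus strand), another large-subunit protein with a bacterial counterpart, at 27.8, 43.8, 32.5 and 37.9 CPM against 21, 12.7, 0 and 11.6 CPM (log2 -1.60 ± 0.73, edgeR adjusted p 0.527). The share of all genes that were lower without overlap in both injury states was not counted. Other libraries enter the comparison at 3 DPI than the uninjured one, though codes recur between them. With the library code as a term the log2 fold changes at 3 DPI were -1.55 for Mrps33, -1.5 for Mrpl12 and -1.07 for Mrpl9, with an edgeR adjusted p of 0.9999 for each. Mrpl52 (chr14:54426909-54429756, plus strand), at 13.9, 23.3, 37.4 and 33.7 CPM against 8.18, 10.4, 0 and 14 CPM, was apart under library size alone and overlapped under TMM (log2 -1.68 ± 0.77, edgeR adjusted p 0.528). In each of these 4 members replicate 3 of TRF2 MuSC-cKO had no count. On the high side, Mrps5, a small-subunit protein at the decoding site, was at 18.5 to 36.4 CPM in controls and 25.7 to 66.9 CPM in TRF2 MuSC-cKO (log2 0.73 ± 0.43, edgeR adjusted p 0.618). Mrps2, also of the small subunit, was at 22.4 to 35.4 CPM in controls and 45.6, 15, 123 and 23.3 CPM in TRF2 MuSC-cKO, where the value of 123 belongs to replicate 3, and its log2 fold change of 0.90 became -0.03 without that library. Mrps21, Mrpl42, Mrps27 and Mrpl24 had log2 fold changes of -1.47, -1.5, -1.19 and -1.07 with overlapping groups and edgeR adjusted p of 0.616 to 0.645. With the library code as a term that of Mrpl24 turned to 0.05.

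**Figure D5:**
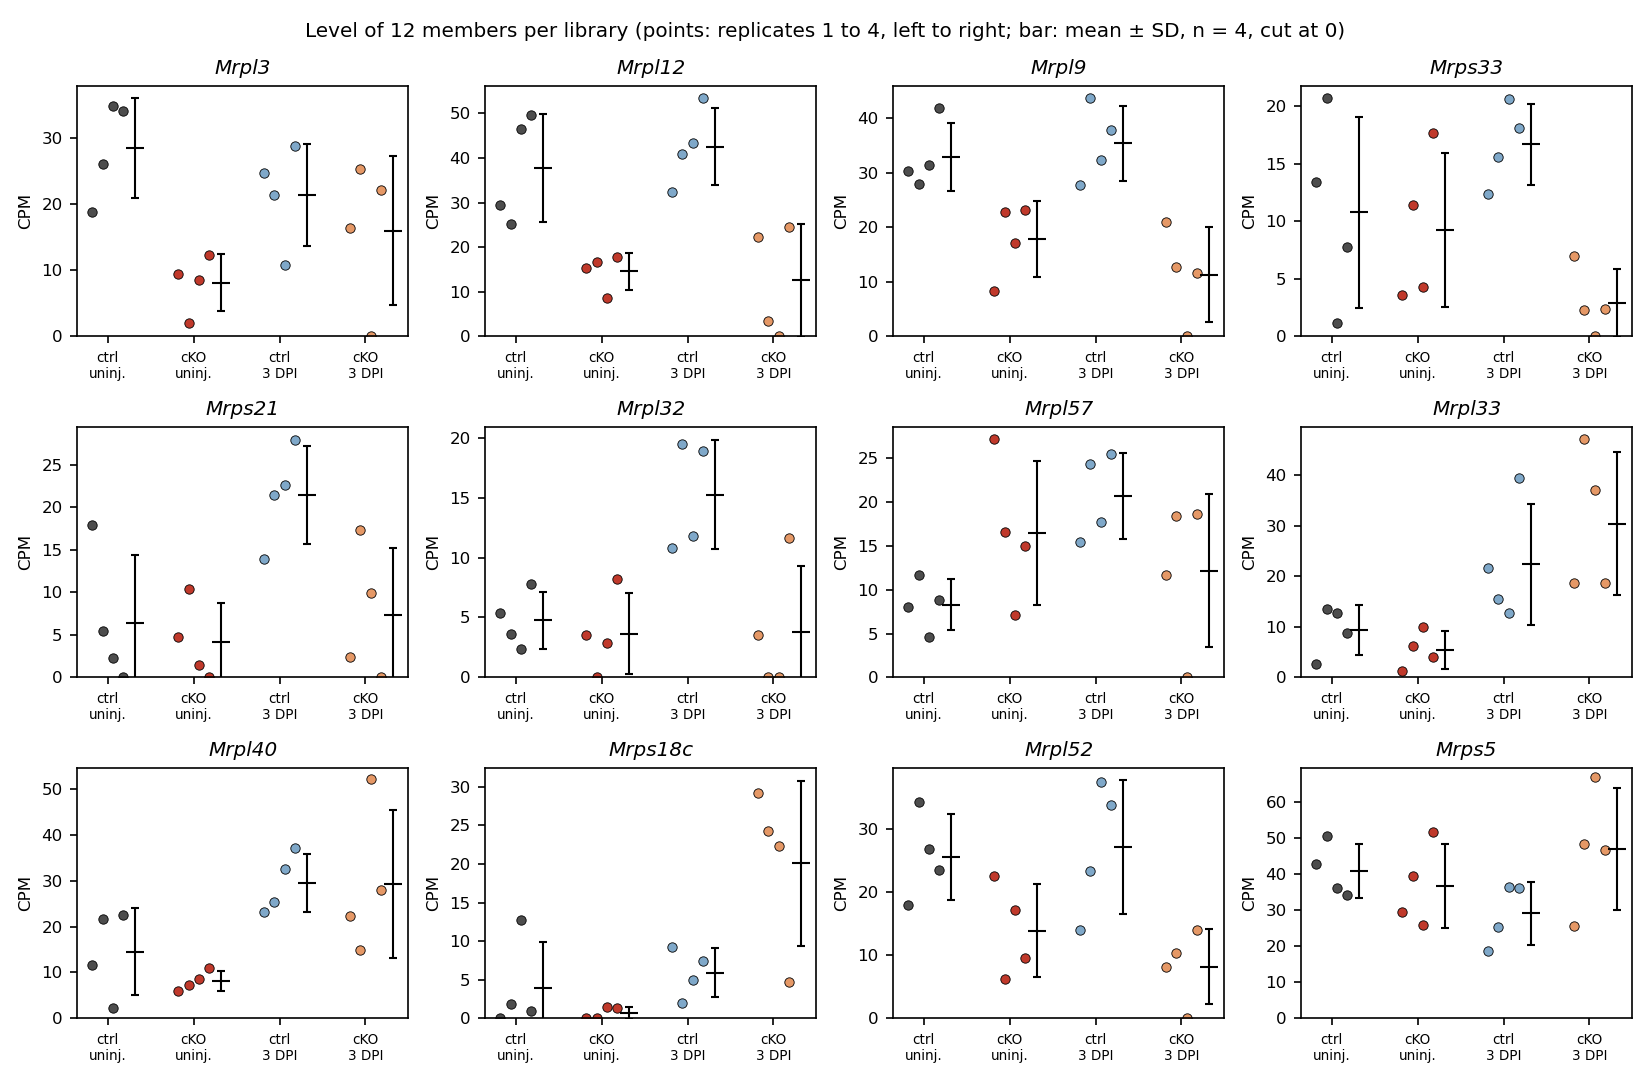
CPM (vertical axis, TMM-scaled) of 12 members in each library of the 4 groups, with mean ± SD of 4 libraries. Mrpl12 and Mrpl9 are lower in TRF2 MuSC-cKO without overlap in both injury states, and Mrpl40 is higher at 3 DPI than in uninjured muscle without overlap in both genotypes. Of all genes, 9.18% in uninjured muscle and 4.87% at 3 DPI were lower without overlap between genotypes. After injury 12.0% in controls and 6.9% in TRF2 MuSC-cKO were higher without overlap. Shares for 2 comparisons at once were not counted.

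The third comparison set 3 DPI against uninjured control MuSCs. More members lay above 0 than genes in general. No member was called, where 20.2% of all genes tested were (1652 higher and 1452 lower). DESeq2 called 0 members and limma 6 of the 71 tested, where they called 20.3% and 20.6% of all genes. The 71 members that passed the filter had log2 fold changes from -0.77 to 1.75 with a median of 0.31, against 0.07 over all genes, and 56 lay above 0 against 53.8%. Without the filter the median of all 77 was 0.30 against 0.12. In the same fit respiratory chain genes had a median of 0.41 with 13 of 72 called higher and 1 lower, and cytosolic ribosomal protein genes a median of -0.62 with 42 of 78 called lower and 1 higher. At an unadjusted p under 0.05, 17 members were higher and 0 lower, where 16.9% and 15.6% of all genes were. With a library left out 6 to 17 members were higher, 6 of them without replicate 4 at 3 DPI. Limma gave 16 higher and 3 lower, and the fit over all 16 libraries 0 of either. The groups were apart in 3 members that were higher and 1 that was lower, where 12.0% and 12.3% of all genes were, and under library size alone in 9 higher and 0 lower, where 16.1% and 9.06% were. The MuSC markers and the macrophage and leukocyte markers given above do not overlap between uninjured muscle and 3 DPI in either genotype. Myofiber markers do not overlap in TRF2 MuSC-cKO, at 121 to 208 CPM in uninjured muscle and 250 to 404 CPM at 3 DPI. The part of these markers in the values of either genotype was not tested.

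Mrps21 (chr3:95862634-95871519, minus strand), a small-subunit protein with a bacterial counterpart, was at 17.9, 5.40, 2.33 and 0 CPM in uninjured controls and 13.9, 21.4, 22.6 and 28.0 CPM at 3 DPI. Its log2 fold change was 1.75 ± 0.59 with an edgeR adjusted p of 0.0256, the smallest of the members here. The overlap came from replicate 1 of the uninjured controls, and without it the log2 fold change was 3.01 with an edgeR adjusted p of 0.000555, which is called. It was also called by limma (adjusted p 0.00491), without the filter (0.0174), under library size alone (0.0160), with the replicate number as a block (0.0176) and with the library code as a term, where its uninjured level rests on 1 library at 0 CPM. In all, 6 of 19 alternative fits called Mrps21 and the rest did not, and its lowest log2 fold change among them was 1.30. Mrpl32 (chr13:14608184-14613165, minus strand), a large-subunit protein that is matured by the mitochondrial m-AAA protease before it joins the ribosome, was at 5.36, 3.60, 2.33 and 7.80 CPM in uninjured muscle and 10.8, 19.4, 11.8 and 18.9 CPM at 3 DPI. The groups are apart, with a log2 fold change of 1.70 ± 0.58 and an edgeR adjusted p of 0.0270, and it was called by limma (adjusted p 0.0111), under library size alone (0.0157) and by edgeR in the abundance-scaled table (0.00899). These were 3 of 18 alternative fits, and the rest did not call it. Mrpl57 (chr14:57826234-57829296, plus strand), mitochondria-specific and of the large subunit, was at 8.04, 11.7, 4.65 and 8.77 CPM against 15.4, 24.3, 17.7 and 25.5 CPM, also apart (log2 1.35 ± 0.48, edgeR adjusted p 0.0315), and was called by limma (adjusted p 0.00993) and under library size alone (0.0170). The rest of its 19 alternative fits did not call it. Mrpl40 (chr16:18872018-18876862, minus strand), another mitochondria-specific protein of the large subunit, was at 11.6, 21.6, 2.33 and 22.4 CPM against 23.2, 25.3, 32.5 and 37.0 CPM (log2 1.06 ± 0.42, edgeR adjusted p 0.0638). The member that was lower without overlap was Mrpl10, at 25.2 to 35.1 against 13.9 to 23.9 CPM, and it overlapped under library size alone. Mrpl33, Mrpl43, Mrps36, Mrps23, Mrpl13 and Mrps14 had log2 fold changes of 0.97 to 1.32 with overlapping groups and edgeR adjusted p of 0.0507 to 0.102, and Mrps36 was called by limma (adjusted p 0.000736). Among them Mrps23 and Mrps36 were low in replicate 1 of the 3 DPI controls (13.9 and 4.63 CPM) and at 33.7 to 35.0 and 20.7 to 23.3 CPM in the other three.

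The fourth comparison set 3 DPI against uninjured MuSCs labelled TRF2 MuSC-cKO. Of the 41 members tested, 21 lay below 0, against 49.6% of all genes. No member was called, where 4.04% of all genes tested were (354 higher and 235 lower). DESeq2 called 1 member of the 41 tested, Mrpl33, where it called 6.81% of all genes, and limma 1, Mrpl40, where it called 7.0%. Of the 77 members 41 passed the filter, with log2 fold changes from -1.01 to 2.42 and a median of -0.01 against 0.01 over all genes, and the median of all 77 without the filter was 0.03 against -0.05. Without replicate 3 at 3 DPI the median of the 54 members tested was 0.21 against 0.05, with 0 members among the 1316 genes then called. Of these 54, 19 lay below 0 against 47.5% of all genes. In the fit over all 16 libraries 25 of 70 members did, against 45.9%. At an unadjusted p under 0.05, 2 members were higher and 0 lower, where 8.66% and 7.72% of all genes were, and the groups of the same 2 members are apart, where 6.90% of all genes were higher without overlap. Mrpl33 (chr5:31596935-31664384, plus strand), a small protein of the large subunit with a bacterial counterpart, was at 1.18, 6.23, 10.0 and 4.09 CPM in uninjured and 18.7, 47.3, 37.2 and 18.6 CPM in 3 DPI libraries. Its log2 fold change was 2.42 ± 0.73 with an edgeR adjusted p of 0.0749, and in controls it was 1.29 ± 0.49, from 2.68 to 13.5 CPM to 12.8 to 39.5 CPM. Its span overlaps Rbks on the other strand and Gm43809 on the same strand. Its uninjured value of 1.18 CPM in TRF2 MuSC-cKO lies below the 3.55 CPM that 3 counts give in that library, so its fold rests on few reads. Mrpl40 was at 5.92, 7.27, 8.59 and 10.9 CPM in uninjured and 22.2, 15, 52.1 and 28.0 CPM in 3 DPI libraries (log2 1.77 ± 0.64, edgeR adjusted p 0.150). It was thus higher at 3 DPI without overlap in both genotypes, and the share of all genes that were so was not counted. Mrpl15 and Mrps2 had log2 fold changes of 0.83 and 0.90 that were carried by replicate 3 at 3 DPI, at 131 and 123 CPM, and became 0.00 and 0.02 without it. Mrpl2, Mrps15 and Mrpl54 had log2 fold changes of 1.07, 0.92 and 0.88, and Mrpl24, Mrps27 and Mrpl4 of -1.01, -1.0 and -0.59, all with overlapping groups and edgeR adjusted p of 0.546 to 0.724. With the library code as a term that of Mrpl54 turned to -0.57.

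Whether the genotype difference itself changed with injury was fitted on all 16 libraries. No member was called among the 70 that passed the filter, where 3 genes in all were (0.0178%), and limma and DESeq2 called 0 as well, where they called 0.731% and 0.143% of all genes. The median was -0.14 against 0.03 over all genes, and it turned to 0.03 against 0.16 with the GC trend removed. Among the 6 members with at least 10 counts in each library it was 0.40 against 0.09. These had to reach 10 counts in replicate 3 of TRF2 MuSC-cKO at 3 DPI, which had counts for few members. That value therefore cannot decide the direction of the other members. At an unadjusted p under 0.05, 1 member was higher and 0 lower, where 3.57% and 2.17% of all genes were. It was Mrps18c (chr5:100798627-100804471, plus strand), one of several mitochondrial versions of a bacterial small-subunit protein. It was at 0, 1.80, 12.8 and 0.975 CPM in uninjured controls, 0, 0, 1.43 and 1.36 CPM in uninjured TRF2 MuSC-cKO, 9.27, 1.94, 4.92 and 7.41 CPM in 3 DPI controls, and 29.2, 24.2, 22.3 and 4.66 CPM in TRF2 MuSC-cKO at 3 DPI. Of the last 4 libraries 3, replicate 3 among them, stood above each other library. The uninjured TRF2 MuSC-cKO libraries held 0 or 1 count each, so the interaction of 4.09 ± 1.57 on the log2 scale (edgeR adjusted p 0.730) rests on few reads and depends on the prior count. Mrps18a, another of these versions that sits in the large subunit, was at 10.8 to 36.2 CPM in 3 DPI controls and 18.7, 6.92, 0 and 3.49 CPM in TRF2 MuSC-cKO. The next members by p were Mrps33 (-2.23), Mrpl57 (-1.74) and Mrps23 (-1.66), with edgeR adjusted p of 0.887 to 0.910, and Mrps5, Mrpl3, Mrpl10, Mrpl34, Mrpl33 and Mrps18a, with adjusted p of 0.927 to 0.940. Mrps30, the other large-subunit protein under a small-subunit name, had overlapping groups throughout, at 10.5 to 28.6 CPM in uninjured controls, 1.18 to 24.3 in uninjured TRF2 MuSC-cKO, 10.7 to 30.5 in 3 DPI controls and 0 to 23.1 in TRF2 MuSC-cKO at 3 DPI.

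Other genes of the pathway are given by list. Of 5 ribosomal proteins with other names (Dap3, Ptcd3, Chchd1, Aurkaip1 and Gadd45gip1), of which 4 or 5 were tested, none was called in any of the 5 fits. Ptcd3, a small-subunit protein, was at 47.5 ± 9.07 CPM in uninjured controls and 21.2 ± 2.55 in uninjured TRF2 MuSC-cKO (SD, n = 4), without overlap and with an edgeR adjusted p of 0.0663. Dap3, a GTP-binding protein of the small subunit, was at 42.7 ± 11.3 CPM in 3 DPI controls and 19.0 ± 9.93 in TRF2 MuSC-cKO, also without overlap (edgeR adjusted p 0.524). The groups were apart in 2 more cases. Ptcd3 was lower at 3 DPI than in uninjured controls (log2 -0.48, edgeR adjusted p 0.266), and Aurkaip1 was higher at 3 DPI than in uninjured TRF2 MuSC-cKO, at 28.0 to 102 against 4.73 to 20.8 CPM (log2 1.82 ± 0.64, edgeR adjusted p 0.142). Of all genes tested, 9.18% in uninjured muscle and 4.87% at 3 DPI were lower without overlap between genotypes. After injury 12.3% were lower without overlap in controls and 6.90% higher in TRF2 MuSC-cKO. Ict1, now named Mrpl58 and outside the symbol rule, overlapped in each comparison. Of 17 translation factors and activators 16 were tested at 3 DPI in controls and 2 were called higher, where 10.8% of all genes were: Tufm, the mitochondrial elongation factor Tu, from 41.6 ± 10.2 to 72.4 ± 13.1 CPM (log2 0.85, edgeR adjusted p 0.0111), and Slirp, an RNA-binding partner of Lrpprc that keeps mitochondrial mRNAs stable, from 1.21 ± 0.40 to 11.5 ± 1.60 CPM (log2 3.16, edgeR adjusted p 0.00181). The uninjured values of Slirp are below the level that 3 counts give, so its fold rests on few reads. The median of the 16 was -0.03. Metap1d was lower without overlap (log2 -0.92, edgeR adjusted p 0.0431), which misses the threshold. No tested gene was called in any of the 5 fits among those of ribosome assembly (15 to 20 of 24 tested), mitochondrial tRNA synthetases (14 to 17 of 17), mitochondrial DNA expression (8 to 10 of 13) and transcriptional regulators (9 of 9). In controls at 3 DPI the medians of these lists were 0.14, -0.21, -0.30 and -0.34, against 0.31 for the members.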

How the data were processed

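MuSCs were sorted as α7-integrin+ cells that carry VCAM or CD34 and lack blood, endothelial and Sca1 markers, and total RNA libraries were made with a random-primed, rRNA-depleted, strand-specific kit that carries molecular identifiers. The authors trimmed reads with Trim Galore, aligned them to Ensembl GRCm38 with STAR and quantified genes with Salmon. For these the submitters' processing notes give versions 0.6.7, 2.6.1d and 1.5.2, whereas the paper's methods give another version of STAR. Both deposited tables hold estimated counts per gene, one as Salmon gave them and one scaled from abundance. The annotation release, and whether strand and identifiers were used in counting, are not given in the sources used here. Estimated counts were rounded and tested with edgeR 4.0.16 (R 4.3.3): TMM factors, filterByExpr and a robust quasi-likelihood fit on the 8 libraries of each comparison of 2 groups, and on 16 for the interaction. A gene was called at a Benjamini-Hochberg adjusted p under 0.02 over all genes tested and a fold change over 1.5. CPM values use TMM factors over all 16 libraries. Levels per length use the scaled table as a share of its total, which is read as per length because the ratio of the tables rises with transcript length (Spearman 0.658 across 14465 genes). Gene spans, lengths and GC come from GENCODE M21 (GRCm38), where all 77 members matched. Promoters come from RefSeq GRCm38.p6. Named members were, in each comparison, the called members or, with fewer than 10 called, those of smallest unadjusted p up to 10, the 5 highest and 3 lowest per length in uninjured controls, and Mrps18a, Mrps30 and Mrps36. A few others were named after their values were seen. Alternatives were limma 3.58.1, DESeq2 1.42.0, library size alone, median-of-ratios size factors, other filters, the scaled table, 1 fit over all libraries, a replicate block, the code in the library names as a term, length and GC trends, and each library left out. The code for the test was tested on simulated counts with known changes. Between uninjured genotypes it called 81.0% of changes of 2 on the log2 scale and 26.0% of changes of 1. At 3 DPI these shares were 19.0% and 2.0%. After injury they were 77.0% and 24.0% in controls, and 16.0% and 2.0% in TRF2 MuSC-cKO. A lack of calls with TRF2 MuSC-cKO at 3 DPI therefore does not show that levels are alike. The members and lists were chosen with earlier results of these data known.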

Additional observations from a re-analysis of the deposited data

Results flagged for a closer look

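In groups of 4 libraries, 12 values of 156 groups tested stood apart from the other 3 by Dixon's test, where chance gives about 1 in 20 groups. Of the library measures, replicate 2 of the uninjured controls had a count for 77 members, where the other 3 had 76 each. The summed small-subunit level was low in replicate 1 of uninjured TRF2 MuSC-cKO, at 255.6 CPM, and high in replicate 2 of TRF2 MuSC-cKO at 3 DPI, at 439.4 CPM. Of the members, Mrpl15 was at 131.4 CPM in replicate 3 of TRF2 MuSC-cKO at 3 DPI, the library with counts for 40 members. Among 3 DPI controls, Mrpl24 was high at 54.1 CPM and Mrps27 low at 12.8 CPM in replicate 3, and Mrps23 and Mrps36 were low at 13.9 and 4.63 CPM in replicate 1. Among uninjured controls, replicate 3 was low for Mrpl28 at 20.9 CPM and high for Mrps18c at 12.8 CPM. Among uninjured TRF2 MuSC-cKO libraries, Mrpl43 was high at 22.9 CPM in replicate 3 and Mrpl54 was high at 15 CPM in replicate 4.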

How the results depend on the processing

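Members had a median of 14.8 counts per library, so depth limits what single members can show. Of 1004 alternative values of named members' log2 fold changes, 985 kept direction and side of the threshold, 16 passed it and 3 reversed. With the library code as a term, an alternative chosen after seeing the data, Mrpl24 between genotypes at 3 DPI was at 0.049 and Mrpl54 in TRF2 MuSC-cKO after injury at -0.57. Mrps2 between genotypes at 3 DPI was at -0.026 without replicate 3 of TRF2 MuSC-cKO (range -0.026 to 1.19 over libraries left out). The cause of the changes below was not tested.

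The count of members called at 3 DPI was 1 with limma (Mrps33), where 0.192% of all genes were. In controls after injury it was 6 with limma (Mrps36, Mrps21, Mrps24, Mrpl57 and Mrpl32 higher, Mrpl23 lower; 20.6% of all genes), 3 under library size alone (Mrps21, Mrpl32 and Mrpl57; 19.9%), 1 without a filter (Mrps21; 3062 of 23576 genes), 2 in the scaled table (Mrpl32 and Mrpl34; 12.1%), 1 with a replicate block (Mrps21; 18.5%), 1 with the library code as a term (Mrps21; 9.67%), and 0 to 1 with a library left out (16.2% to 20.5%; 17.3% in the fit without replicate 1 of the uninjured controls, which called Mrps21). In TRF2 MuSC-cKO after injury it was 1 with limma, 1 with DESeq2 and 2 with all 16 libraries in 1 fit (Mrpl33 and Mrps18c; 7.16%). The median log2 fold change of the members between uninjured genotypes was -0.33 without a filter and 0.075 with at least 10 counts in every library, which left 9 members. At 3 DPI it was -0.73 without a filter, 0.12 with at least 10 counts (9 members), -0.41 with the length trend removed, -0.22 with the library code as a term and -0.70 to -0.30 with a library left out. In TRF2 MuSC-cKO after injury it was 0.35 with at least 10 counts (6 members) and -0.050 to 0.21 with a library left out. For the interaction it was 0.40 with at least 10 counts (6 members), 0.034 with the GC trend removed and -0.36 to -0.13 with a library left out. Where replicate 3 of TRF2 MuSC-cKO at 3 DPI enters, the filter at 10 counts keeps only members that reach 10 counts in that sparse library. Those medians therefore cannot decide the direction of the other members. Under library size alone the mean summed level was 1134 CPM in uninjured controls and 1344 CPM in TRF2 MuSC-cKO at 3 DPI. The log2 ratio of the sums between uninjured genotypes was -0.050 under library size alone and -0.12 in the abundance-scaled table, and in controls after injury it was 0.51 under library size alone. That scaling moved the median of all genes from 0.06 to 0.24 between uninjured genotypes and from 0.07 to 0.23 in controls after injury.

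Libraries with the same replicate number did not deviate together (correlations -0.11 to 0.11), and in no comparison did every library correlate best with its own number. With the replicate number as a block, the members' median was -0.82 at 3 DPI and -0.34 in TRF2 MuSC-cKO after injury, and 1 member, Mrps21, was called in controls after injury.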
